A study of Mus musculus with 9 samples.

Results

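Neutrophils are loaded with proteases, and they also make the proteins that restrain them. The transcripts of 10 such inhibitors were examined in sorted mouse bone marrow neutrophils: the stefin A genes Stfa1, Stfa2, Stfa2l1, Stfa3 and BC100530, the cystatins Cstb and Cst3, the whey acidic protein (WAP) domain genes Slpi and Wfdc21, and the serpin Serpinb1a. Members were chosen by symbol, and all 10 were found among the 7197 genes listed, 9 of them under the same symbol. BC100530 was listed under its newer symbol, Cstdc5, which was matched by gene coordinates and is used from here on. The libraries came from 2 genotypes, 5 from Rragc+/+ and 4 from RragcS74N/+ mice, all aged 2 months. RagC, the product of Rragc, works in the Rag GTPase dimer that reports nutrient sufficiency to the growth kinase mTORC1, and the S74N allele, made by gene editing and carried as 1 copy in every cell of the animal, encodes an active form that mimics the GDP-bound state. Cells were sorted as CD45+ CD11b+ Ly6G+, so each value is an average over a sorted bulk population, in which fewer cells of a type and less RNA per cell cannot be told apart.

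Stefins and cystatins bind in the active-site cleft of cysteine proteases such as the lysosomal cathepsins and block it reversibly. Stefins A and B lack a signal peptide and act inside the cell, whereas cystatin C, encoded by Cst3, is secreted. In mice the single stefin A gene of humans is expanded into a cluster of close copies that are abundant in myeloid cells. SLPI (secretory leukocyte protease inhibitor) and SERPINB1 act on the serine proteases of neutrophil granules, SLPI as a small secreted inhibitor of elastase and cathepsin G and SERPINB1 as an intracellular suicide substrate of elastase, cathepsin G and proteinase 3. Wfdc21 encodes a small secreted protein with a WAP domain like those of SLPI.

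The 5 stefin A members lie together on chromosome 16 (positions in assembly GRCm38 throughout, since the annotation at hand is of that assembly and not of the authors' GRCm39). Stfa2l1 (chr16:36156811-36161953) and Stfa1 (chr16:36276951-36285373) are on the plus strand, and Cstdc5 (chr16:36359382-36367748), Stfa2 (chr16:36403992-36408457) and Stfa3 (chr16:36450537-36455392) are on the minus strand. A further 4 stefin A-like copies of the cluster were listed, Cstdc4, Cstdc6, Csta2 and Csta3, which makes 9 copies in all. The other members are elsewhere: Cstb at chr10:78425669-78427622 (plus), Cst3 at chr2:148871722-148875692 (minus), Slpi at chr2:164354070-164389095 (minus), Serpinb1a at chr13:32842092-32851185 (minus) and Wfdc21 at chr11:83746940-83752642 (plus).

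How far reads of the copies can be told apart depends on the 3′ end of each transcript, where these libraries place their reads. In the 5 stefin A members the annotated transcript runs on for only 35 to 81 bases after the stop codon, so reads near the 3′ end also fall in the coding sequence. The last 60 coding bases, stop codon included, are shown for the 5 members, for Cstdc4 as the copy with the most reads, and for Cstb as the stefin outside the cluster. Capitals mark bases that differ from Stfa1 at the same distance from the stop codon.
Stfa1: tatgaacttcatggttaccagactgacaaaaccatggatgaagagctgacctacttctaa
Cstdc5: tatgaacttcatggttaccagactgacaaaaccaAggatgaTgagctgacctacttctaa
Stfa2: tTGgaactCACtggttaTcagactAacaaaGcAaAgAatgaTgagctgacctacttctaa
Stfa2l1: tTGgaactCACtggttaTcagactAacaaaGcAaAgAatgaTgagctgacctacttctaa
Stfa3: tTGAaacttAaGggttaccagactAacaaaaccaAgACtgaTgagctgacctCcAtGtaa
Cstdc4: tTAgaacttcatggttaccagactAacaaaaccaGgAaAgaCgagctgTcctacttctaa
Cstb: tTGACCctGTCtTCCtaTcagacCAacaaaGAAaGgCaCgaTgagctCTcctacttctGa
Cstdc5 differed from Stfa1 at 2 of these 60 bases, Stfa2 and Stfa2l1 were identical to each other and differed from Stfa1 at 12, Stfa3 differed at 13, Cstdc4 at 8 and Cstb at 24. When coding sequences were aligned and gaps left out, the 5 members shared 77.9% to 98.0% of aligned bases (median 81.4%, 10 pairs). The Stfa1 sequence used has 387 coding bases, of which 294 were aligned with each other member. The closest pairs were Stfa1 with Cstdc5, at 98.0%, and Stfa2 with Stfa2l1, at 96.5%.

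Of all 75-base stretches in the last 500 bases of the annotated transcript (the whole transcript where it is shorter), the share found letter for letter in another listed copy was 22.1% for Cstdc5, 7.04% for Stfa1, 6.67% for Stfa2l1, 5.79% for Stfa2 and 0% for Stfa3. With 50-base stretches these shares were 35.7%, 24.6%, 16.8%, 14.7% and 0%. The alignment allowed reads with several hits, and how such reads were counted is not given in the sources used here. It also allowed mismatches, so shares of exact stretches can understate how far reads of the copies coincide, for Stfa3 as well. The values of single copies are therefore uncertain, and the sum over copies is given beside them.

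The copies also resemble each other upstream. Over the 250 bases before the RefSeq transcript start (assembly GRCm38.p6), the 5 stefin A members shared 82.2% to 96.1% of aligned bases (median 85.0%, 10 pairs). The 120 bases directly before the start are shown because these genes varied together across libraries, as described further on. Capitals mark the longest stretch present in all 5 of these windows.
Stfa1 (chr16:36277028-36277147, plus strand): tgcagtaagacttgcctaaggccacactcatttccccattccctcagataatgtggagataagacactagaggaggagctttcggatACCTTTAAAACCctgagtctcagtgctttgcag
Cstdc5 (chr16:36367571-36367690, minus strand): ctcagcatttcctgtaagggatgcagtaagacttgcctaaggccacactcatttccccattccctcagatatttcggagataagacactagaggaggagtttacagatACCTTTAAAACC
Stfa2 (chr16:36408364-36408483, minus strand): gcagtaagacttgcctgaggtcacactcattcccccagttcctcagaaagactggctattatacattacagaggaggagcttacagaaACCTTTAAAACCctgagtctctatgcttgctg
Stfa2l1 (chr16:36156691-36156810, plus strand): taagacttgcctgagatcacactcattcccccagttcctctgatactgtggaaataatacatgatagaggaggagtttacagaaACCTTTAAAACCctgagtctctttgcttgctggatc
Stfa3 (chr16:36455393-36455512, minus strand): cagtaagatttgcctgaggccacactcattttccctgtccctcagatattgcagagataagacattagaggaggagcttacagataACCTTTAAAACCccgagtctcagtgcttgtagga
This stretch, ACCTTTAAAACC, was found by comparing the windows rather than looked up as a known motif, and it ended 0 to 24 bases before the annotated start. Searched on both strands over the 250 bases before each start, it was present in 11 of 32851 promoters of the table (0.0335%), and those 11 include the 5 members, Cstdc4 and Csta3. The TATA box letters TATAAA were in none of the 7 member promoters in the table, against 12.4% of all promoters. Only these exact letters were searched, so variants of the TATA box are not covered. The letters CCAAT were in the promoters of all 5 stefin A members, which are close copies of each other, against 33.8% of all promoters. Cst3 and Slpi were the other members with a promoter in the table, and neither held CCAAT. Of the further stefin A-like copies, Csta2 held CCAAT, whereas Cstdc4 and Csta3 did not.

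Each library yielded between 1214295 and 1973957 reads over the listed genes, recovered from the deposited normalized counts (gene read counts divided by 1 size factor per library). Normalized counts of the 9 libraries are given in the order of their replicate numbers, which only name the libraries. The neutrophil markers were all listed (8 of 8, among them Ly6g, Itgam, S100a8 and S100a9), with a summed level of 96686 to 150944 in Rragc+/+ and 95523 to 164459 in RragcS74N/+. Of 7 precursor markers 3 were listed, and Elane, Mpo, Prtn3 and Ctsg were not among the listed genes. Rragc+/+ replicate 2 resembled the other libraries least, with a mean Spearman correlation across genes of 0.901 against 0.935 to 0.954 for the others. No gene of the 6673 tested differed between genotypes at an adjusted p under 0.05 (0.00%) by limma, edgeR or DESeq2.

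The members together took 1.62% of all reads, and Wfdc21 alone took 1.01%. Reads of 3′-end libraries count transcripts rather than bases of transcript, so levels were compared between genes without dividing by length. Wfdc21 averaged 13644 normalized counts over the 9 libraries and was the seventh most abundant of all listed genes. It exceeded Slpi, at 2663, by 5.12-fold, and their ranges did not overlap. Slpi was above Stfa2l1 (1387) in 9 of 9 libraries, and Stfa2l1 was above Stfa3 (1073) in 9 of 9. The order of the next genes was less firm, since Stfa3 was above Serpinb1a (836) in 7 libraries and Serpinb1a was above Cstdc5 (795) in 6. Cstdc5 was above Stfa1 (569) in 9 of 9 libraries. Stfa1 was above Stfa2 (506) in 7 and Stfa2 above Cst3 (406) in 5, so these 3 neighbors were not ordered the same way in every library. Cstb was the scarcest member at 136, below Cst3 in 9 of 9 libraries with no overlap of their ranges (3.00-fold in the means).

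**Figure D1:**
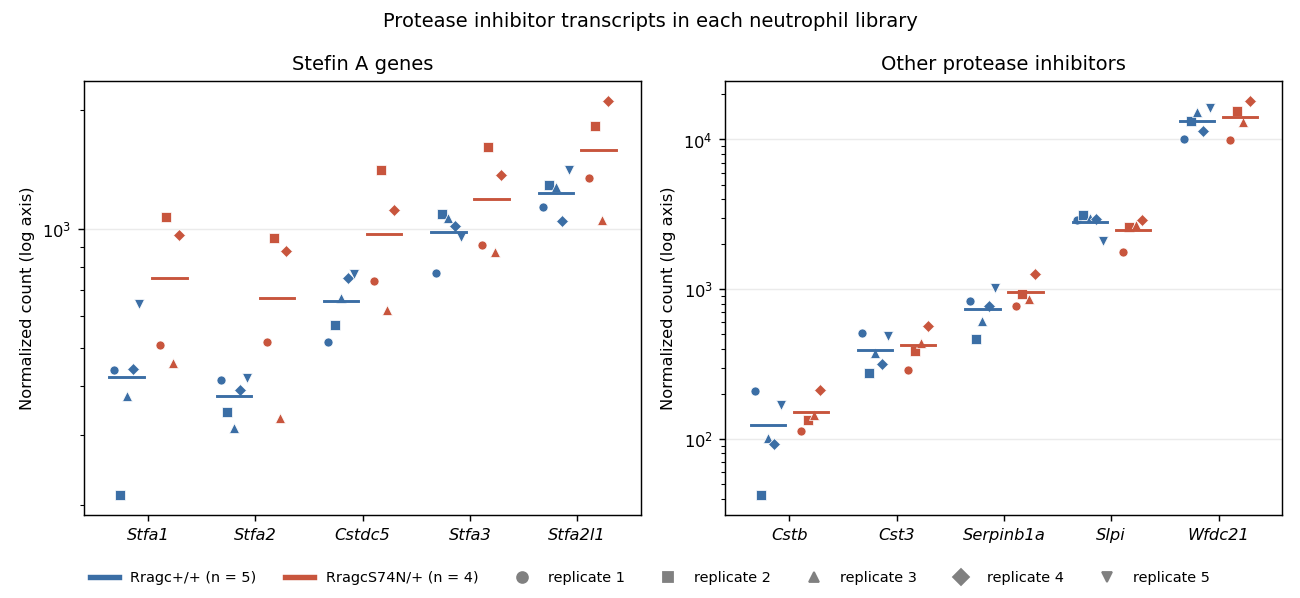
Normalized counts (log axis) of the 5 stefin A genes and of the 5 other inhibitors in each library, with Rragc+/+ in blue (n = 5), RragcS74N/+ in red (n = 4), symbols for replicate numbers and a line at each genotype's mean. RragcS74N/+ replicates 2 and 4 (square and diamond) lie above all Rragc+/+ libraries for every stefin A gene shown, replicate 3 (triangle) lies among them, and the genotypes overlap for each of the 10 genes.

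All 5 stefin A genes had a higher mean in RragcS74N/+, and 2 of its 4 libraries lay above every Rragc+/+ library for each of them. Stfa1 measured 439.9, 211, 378, 441 and 644 normalized counts in Rragc+/+ replicates 1 to 5, and 509, 1073, 457 and 968 in RragcS74N/+ replicates 1 to 4. Replicates 2 and 4 of RragcS74N/+ were above the highest Rragc+/+ library, and replicates 1 and 3 lay within the Rragc+/+ range. The genotype means were 423 ± 155 (SD, n = 5) and 752 ± 314 (SD, n = 4). On the log2(value + 1) scale the difference was 0.82 (SE 0.32, 95% confidence interval 0.14 to 1.50), or 1.76-fold, with an adjusted p of 0.713 and an unadjusted p of 0.0222 by limma. Removal of Rragc+/+ replicate 2, the library with the lowest Stfa1 and the one least like the others, took the difference to 0.59.

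Stfa2 had the smallest p of the set. Its values were 415, 344, 314, 391 and 419 in Rragc+/+ and 519, 947, 333 and 877 in RragcS74N/+. All RragcS74N/+ libraries but replicate 3 were above the highest Rragc+/+ library. The means were 376 ± 46.1 (SD, n = 5) and 669 ± 292 (SD, n = 4), and the log2 difference was 0.72 (SE 0.27, interval 0.15 to 1.29, 1.64-fold, limma unadjusted p = 0.0176, adjusted p = 0.713). The Rragc+/+ libraries lay close together for this gene, while the 2 highest RragcS74N/+ libraries were far from the lowest.

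Cstdc5, the copy closest to Stfa1 in sequence, measured 517, 570.2, 669, 752 and 767 in Rragc+/+ and 736, 1407, 621 and 1117 in RragcS74N/+. Again replicates 2 and 4 of RragcS74N/+ were above all Rragc+/+ libraries and the other 2 were not. The log2 difference was 0.51 (SE 0.23, interval 0.0072 to 1.01, limma unadjusted p = 0.0472, adjusted p = 0.713), and it was 0.30 without RragcS74N/+ replicate 2 (limma unadjusted p = 0.203).

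Stfa2l1, the most abundant of the 5, measured 1133, 1289, 1279, 1045 and 1409 in Rragc+/+ and 1349, 1819, 1053 and 2111 in RragcS74N/+. The log2 difference was 0.32 (SE 0.20, interval -0.11 to 0.75, limma adjusted p = 0.713), within the spread between replicates. It was 0.16 without RragcS74N/+ replicate 4 and 0.50 without RragcS74N/+ replicate 3 (limma unadjusted p = 0.0240). Its coding sequence is nearly that of Stfa2, for which the estimate was larger, but the difference between the 2 estimates was not tested. Stfa3 measured 774, 1089, 1068, 1016 and 954 in Rragc+/+ and 908, 1608, 873 and 1367 in RragcS74N/+. Among the 5 members it is the copy with no 50-base stretch in common with another listed copy. Csta3, a copy outside the 5, had no such stretch either, and its log2 difference was 0.64. A link between shared stretches and the differences was not tested. The log2 difference of Stfa3 was the smallest of the 5 at 0.24 (SE 0.20, interval -0.20 to 0.68, limma adjusted p = 0.742). This value was 0.078 without RragcS74N/+ replicate 2, 0.16 without replicate 4 and likewise without Rragc+/+ replicate 1, and 0.37 without RragcS74N/+ replicate 3.

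Summed over the 5 members, stefin A measured 3279, 3503, 3709, 3645 and 4193 normalized counts in Rragc+/+ and 4021, 6853, 3337 and 6439.6 in RragcS74N/+. The sum varied little among the Rragc+/+ libraries (3666 ± 338, SD, n = 5), and the RragcS74N/+ libraries fell into 2 high and 2 that overlapped with Rragc+/+ (5163 ± 1744, SD, n = 4). The log2 difference of the sums was 0.43, and it lay between 0.28, without RragcS74N/+ replicate 2, and 0.62, without RragcS74N/+ replicate 3. Reads exchanged among these 5 copies leave this sum as it is, whereas reads exchanged with the other listed copies do not, so the sum over all 9 copies follows. Any reads left uncounted because they matched several copies would be missing from both sums and could shift the shares of the copies.

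**Figure D2:**
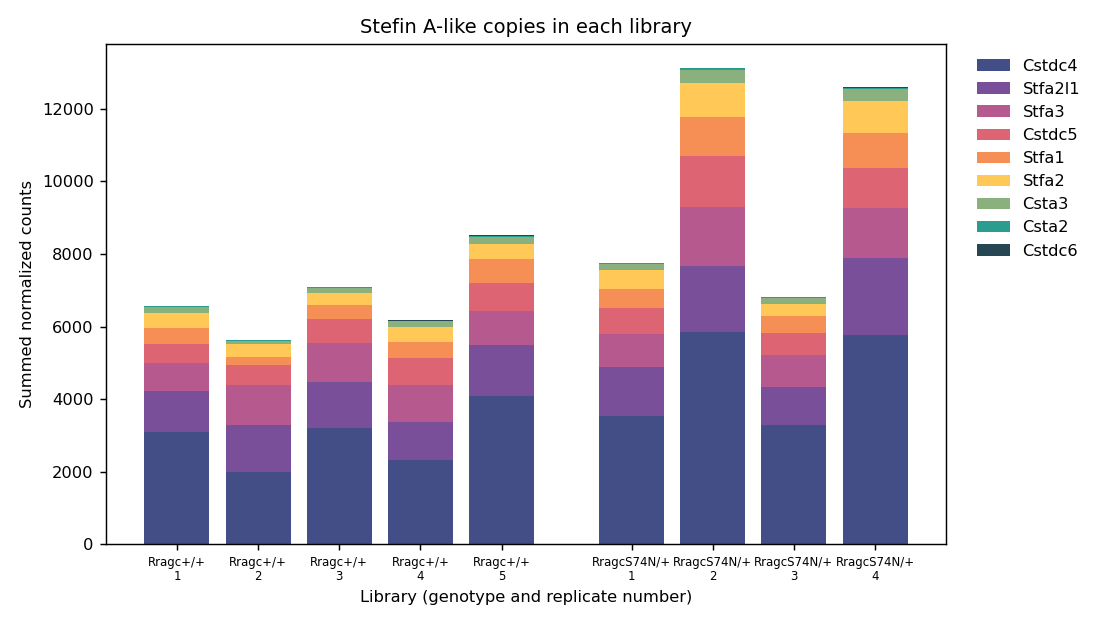
Normalized counts of the 9 listed stefin A-like copies stacked for each library (x axis: genotype and replicate number). The bars of RragcS74N/+ replicates 2 and 4 reach 13127 and 12595, the other 7 libraries lie between 5634 and 8514, and Cstdc4 is the largest segment in every library.

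With the 4 other copies included, Rragc+/+ libraries summed to 6794 ± 1099 (SD, n = 5) and RragcS74N/+ libraries to 10072 ± 3252 (SD, n = 4), a log2 difference of 0.52. Cstdc4 held 44.2% ± 4.44 (SD, n = 9 libraries) of the reads of the 9 copies, followed by Stfa2l1 with 17.2%, Stfa3 with 13.5%, Cstdc5 with 9.65%, Stfa1 with 6.62%, Stfa2 with 5.98% and Csta3 with 2.36%. Csta2 and Cstdc6 held 0.349% and 0.0841%. By genotype, Stfa1 took 6.10% ± 1.55 (Rragc+/+, SD, n = 5) and 7.28% ± 0.772 (RragcS74N/+, SD, n = 4) of the copies' reads, and Stfa3 took 14.8% ± 3.36 (SD, n = 5) and 11.9% ± 0.838 (SD, n = 4).

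Of the eosinophil and basophil markers, Prg2 and Epx moved with the stefin A level and Siglecf did not. Of the 5 markers on this list 3 were listed (Prg2, Epx and Siglecf), and the basophil genes Prss34 and Mcpt8 were not among the listed genes. Their summed level was 48.1, 50.2, 46.9, 59.5 and 121 in Rragc+/+ and 51.7, 203, 61.8 and 206 in RragcS74N/+, highest in the same 2 RragcS74N/+ libraries and, within Rragc+/+, in replicate 5, which also had the highest stefin A sum of its genotype. Prg2, the major basic protein of eosinophil granules, accounted for most of this, with 11.2 to 80.2 normalized counts in Rragc+/+ and 21.2 to 159 in RragcS74N/+. Siglecf ran from 21.1 to 34.7 in Rragc+/+ and from 18.8 to 31.5 in RragcS74N/+. Its lowest values were in Rragc+/+ replicate 5 and RragcS74N/+ replicate 4. After each genotype's mean was removed, the correlation of the marker sum with the stefin A sum over the 9 libraries was 0.90. That of the neutrophil marker sum was 0.82, and both share the libraries' size factors. Most of the neutrophil sum was S100a8 and S100a9, and its markers did not move together. Within each genotype, Ly6g, S100a8 and S100a9 were highest in Rragc+/+ replicate 5 and RragcS74N/+ replicate 4. Itgam, Ptprc and Cxcr2 were lowest in those same libraries. The part of either marker sum in the stefin A difference was not tested.

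**Figure D3:**
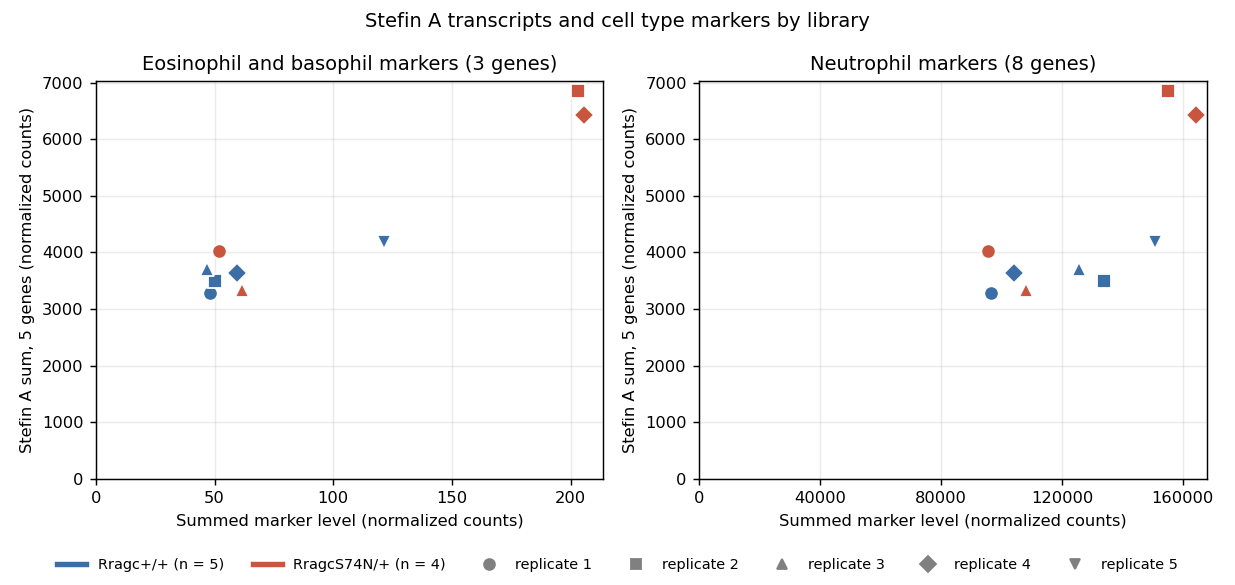
Sum of the 5 stefin A genes (y axis, normalized counts) against the summed eosinophil and basophil markers (left) and neutrophil markers (right) in each library, with Rragc+/+ in blue (n = 5) and RragcS74N/+ in red (n = 4). RragcS74N/+ replicates 2 and 4 are highest on both axes of both panels, and the other 7 libraries have stefin A sums between 3279 and 4193.

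The genotypes also overlapped for the 5 members outside the stefin A cluster, whose log2 differences ran from -0.19 to 0.45. Cstb, which encodes the intracellular inhibitor stefin B, measured 210.1, 42.1, 102, 93.2 and 168 in Rragc+/+ and 113, 134, 145 and 211 in RragcS74N/+. The spread was wide in Rragc+/+, from 42.1 in replicate 2 to 210.1 in replicate 1, and nearly the whole RragcS74N/+ range lay inside it. The log2 difference of 0.45 (SE 0.37, interval -0.35 to 1.25, limma adjusted p = 0.741) was 0.12 without Rragc+/+ replicate 2, 0.69 without Rragc+/+ replicate 1 and 0.28 without RragcS74N/+ replicate 4. On recovered reads edgeR gave 0.27 and DESeq2 0.29.

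Cst3, the gene of cystatin C, measured 513, 277, 373, 319 and 487 in Rragc+/+ and 287, 387, 439 and 571 in RragcS74N/+. The 2 sets of values were interleaved. The log2 difference was 0.093 (SE 0.23, interval -0.40 to 0.59, limma adjusted p = 0.902), and it turned to -0.024 without Rragc+/+ replicate 2 and to -0.067 without RragcS74N/+ replicate 4. It was 0.26 without RragcS74N/+ replicate 1 and 0.25 once each library's trend on GC content was removed.

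Slpi was the one member with a lower mean in RragcS74N/+. It measured 2896, 3146, 2995, 2923 and 2084 in Rragc+/+ and 1772, 2589, 2666 and 2898 in RragcS74N/+. In Rragc+/+, 4 libraries lay within a narrow band and replicate 5 stood below them, whereas the lowest value of all was RragcS74N/+ replicate 1. The log2 difference was -0.19 (SE 0.19, interval -0.59 to 0.21, limma adjusted p = 0.772), within the spread between replicates, and it was 0.033 once each library's trend on GC content was removed. Without RragcS74N/+ replicate 1 it was -0.035, and without Rragc+/+ replicate 5 it was -0.29.

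Serpinb1a, the serpin that protects neutrophils from their own granule proteases, measured 829, 469, 615, 776 and 1013 in Rragc+/+ and 772, 933, 859 and 1262 in RragcS74N/+. One RragcS74N/+ library was above all Rragc+/+ libraries. The log2 difference was 0.39 (SE 0.22, interval -0.089 to 0.88, limma adjusted p = 0.713), and it was 0.24 without Rragc+/+ replicate 2 and 0.25 without RragcS74N/+ replicate 4.

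Wfdc21 measured 10008, 13252, 15291, 11478 and 16118 in Rragc+/+ and 9937, 15468, 13109.6 and 18135 in RragcS74N/+. The lowest and the highest value were both in RragcS74N/+ libraries. With 11341 to 17406 reads per library this gene had the smallest counting error of the set, and its log2 difference was 0.086 (SE 0.21, interval -0.37 to 0.54, limma adjusted p = 0.900). The sign depended on single libraries, since the difference was -0.0092 without Rragc+/+ replicate 1 and -0.045 without RragcS74N/+ replicate 4, and 0.24 without RragcS74N/+ replicate 1.

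**Figure D4:**
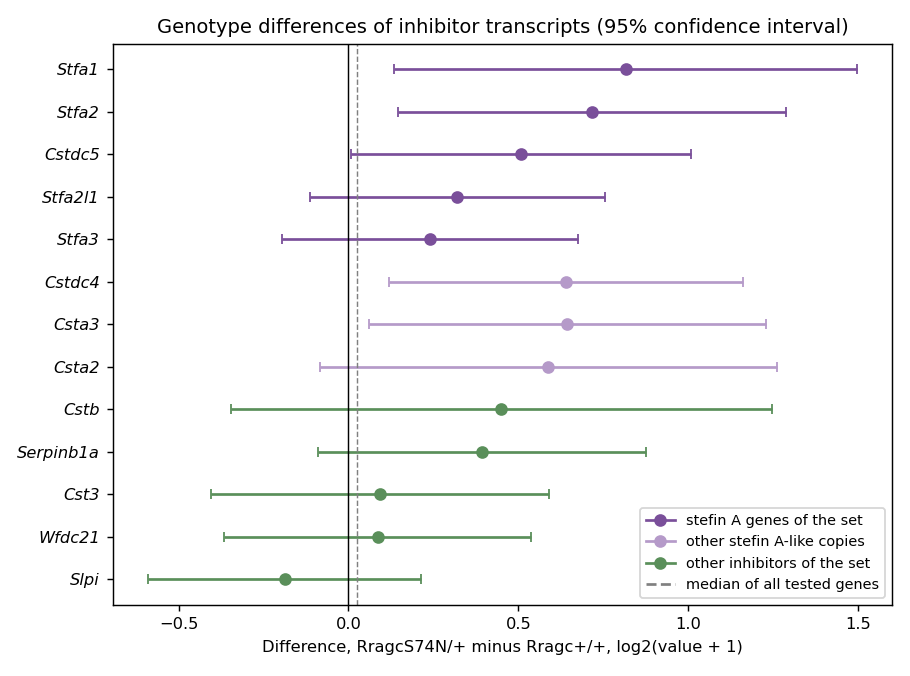
Difference between genotypes (RragcS74N/+ minus Rragc+/+) on the log2(value + 1) scale with its 95% confidence interval from limma, for the 10 members and 3 further stefin A-like copies (Cstdc6, with a mean under 10, was not tested). Intervals of Stfa1, Stfa2, Cstdc5, Cstdc4 and Csta3 lie above 0 before any adjustment, and the dashed line marks the median of all 6673 tested genes, 0.024.

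Over the whole set, 0 of 10 members passed the adjusted threshold. At an unadjusted limma p under 0.05, 3 of 10 (Stfa1, Stfa2 and Cstdc5) were higher in RragcS74N/+, and at that level 2.01% of all tested genes were higher, 3.81% lower and 5.81% differed in either direction. The log2 difference was above 0 for 9 of 10 members, and for 53.4% of all tested genes. The median difference was 0.36 over the 10 members, 0.51 over the 5 stefin A members, 0.093 over the other 5 and 0.024 over all tested genes. These counts rested on 2 libraries: without RragcS74N/+ replicate 2, and likewise without replicate 4, 0 members had an unadjusted p under 0.05, and without replicate 3 there were 4. For no member did the genotypes separate without overlap, as 1.69% of tested genes did. Members are not independent of each other, since the stefin A copies share sequence and varied together.

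The members differed in how much they varied. The coefficient of variation over all 9 libraries, which includes any difference between genotypes, was 49.4% for Stfa1 and 47.1% for Stfa2, with counting errors of 4.28% and 4.42%. It was 36.1% for Cstdc5, 25.8% for Stfa2l1 and 24.4% for Stfa3. Among the other members it ran from 17.1% for Slpi to 40.9% for Cstb, the latter with a counting error of 8.83% from 36 to 319 reads per library. Within genotypes, 94.3% of tested genes had a smaller SD than Cstb and 88.9% a smaller one than Stfa1, whereas 27.2% had a smaller one than Slpi. Cstb and Stfa1 were thus among the more variable genes at this depth and Slpi among the steadier ones. Counting error covers sampling of reads only, and whether reads were collapsed by molecular identifier is not given in the sources used here.

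The members varied in 2 groups across libraries. After removal of each genotype's mean, the 10 pairs of stefin A genes had correlations of 0.44 to 0.87 (median 0.76, 9 libraries), and the 35 other pairs had correlations of -0.23 to 0.89 (median 0.32). Wfdc21 varied with Stfa2l1 (0.70) and Stfa3 (0.69). Cstb, Cst3 and Serpinb1a formed the other group, with correlations of 0.89 between Cstb and Cst3, 0.87 between Cstb and Serpinb1a and 0.82 between Cst3 and Serpinb1a. Stfa1 was correlated with this group as well, at 0.86 with Serpinb1a and 0.70 with Cstb, while Stfa3 was not, at 0.051 and -0.23. Slpi followed neither group, with correlations from -0.14 to 0.40. All pairs share the libraries and their size factors, and pairs of near-identical copies may share reads.

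**Figure D5:**
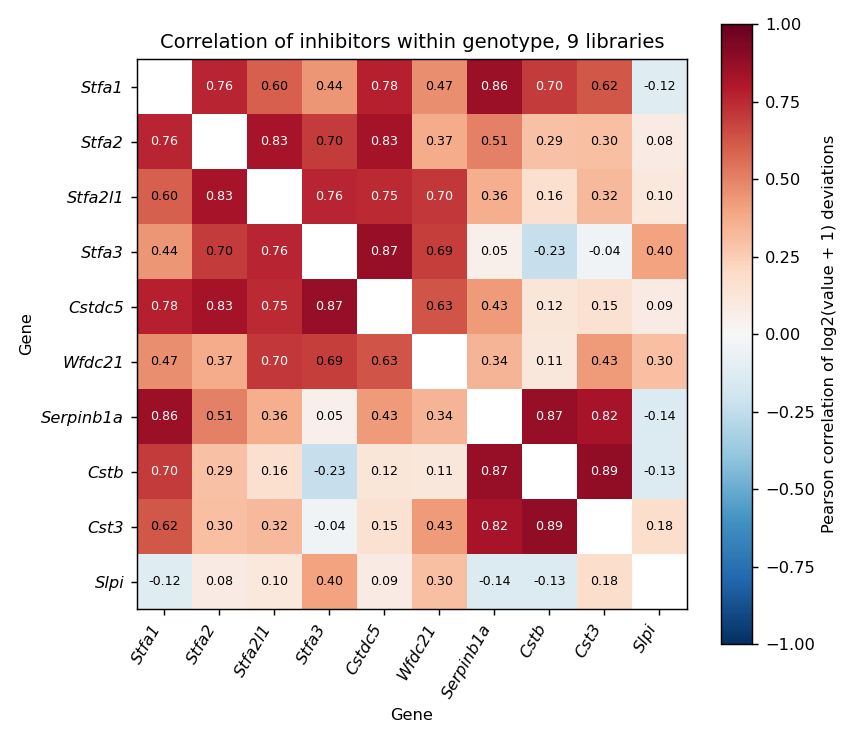
Pearson correlation of each pair of members over the 9 libraries after each genotype's mean of log2(value + 1) was removed (color scale from -1 to 1, values printed in the cells). The block of stefin A genes runs from 0.44 to 0.87, a second block holds Serpinb1a, Cstb and Cst3 (0.82 to 0.89), and Slpi has values from -0.14 to 0.40.

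Genes outside the set with the most similar pattern across libraries, by the same correlation among 3474 genes whose mean reached 50, were Cox17 (0.98), Rab28 (0.98) and Slc31a2 (0.98) for Cstb. COX17 delivers copper to cytochrome c oxidase and SLC31A2 is a copper transporter. For Cst3 they were Cd63 (0.99), which encodes a tetraspanin of granule and lysosome membranes, Pcif1 (0.97) and AI839979 (0.97). For Serpinb1a they were Psma2 (0.98), which encodes a proteasome subunit, Cyb5a (0.98) and Timm8b (0.98). Such values were common rather than particular, with 142 genes above 0.9 for Cstb, 118 for Serpinb1a and 44 for Cst3. Fewer genes followed Wfdc21, with 16 above 0.9 led by Rbis (0.97), mt-Nd4 (0.96) and Cox6c (0.96), and Slpi, with 6 led by Egln2 (0.94), Emp3 (0.93) and Daxx (0.93). The stefin A sum was followed above 0.9 by 8 of 3468 genes, led by Gm13822 (0.97), Med21 (0.93) and Gdpd3 (0.92).

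The levels of the secondary granule genes were set beside Cst3 as well. All 6 markers of these granules were listed (Ltf, Camp, Ngp, Lcn2, Chil3 and Cd177), with a sum of 23038 to 31266 in Rragc+/+ and 18885 to 32909.9 in RragcS74N/+. Their sum had a within-genotype correlation of 0.83 with Cst3 and 0.46 with the stefin A sum. Camp had the widest range within this sum, from 4348 to 13514, and the genes did not all follow Cst3. In Rragc+/+ replicate 2, the lowest of its genotype for Cst3, Camp was also lowest but Lcn2 was highest (5700). In Rragc+/+ replicate 1, the highest for Cst3, Ngp was lowest (8705). Of 12 monocyte, macrophage and dendritic cell markers 3 were listed (Csf1r, Ly6c2 and Itgax), with sums of 2214 to 3432 and 2217 to 3997. Most of this sum was Ly6c2, with means of 2651 in Rragc+/+ and 2708 in RragcS74N/+. The others had lower means in RragcS74N/+, with overlapping genotypes: Csf1r at 177 and 102 and Itgax at 9.42 and 5.05. Erythroid markers (7 of 7 listed) ran from 1091 to 5609 and from 379 to 2158. Their summed level had a lower mean in RragcS74N/+ (1132) than in Rragc+/+ (3171), with overlapping genotypes. Its correlation with the stefin A sum was 0.046. Of the B cell markers 2 of 6 were listed, with sums of 90.0 to 146 in Rragc+/+ and 86.2 to 132 in RragcS74N/+, of the T and NK cell markers 1 of 6 (14.5 to 28.9 and 14.6 to 18.8), and of the platelet markers 0 of 3.

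The remaining copies and the wider inhibitor families showed no call either. Of 14 further cysteine protease inhibitors 5 were listed and 4 tested, with 0 past the adjusted threshold and 2 higher at an unadjusted p under 0.05. These were Cstdc4, at 2943 ± 810.0 (SD, n = 5) and 4611 ± 1395 (SD, n = 4) with a log2 difference of 0.64 (SE 0.24, limma unadjusted p = 0.0195, adjusted p = 0.713), and Csta3, at 156 ± 40.3 (SD, n = 5) and 252 ± 99.3 (SD, n = 4) with the same difference of 0.64 (SE 0.27, limma unadjusted p = 0.0332, adjusted p = 0.713). Both are stefin A-like copies, and both were again highest in RragcS74N/+ replicates 2 and 4. Cast, which encodes calpastatin, the inhibitor of calpains, measured 379.9 ± 59.4 (SD, n = 5) and 377 ± 42.0 (SD, n = 4). Of 34 other serpins, WAP proteins, TIMPs and macroglobulins 5 were listed and tested, and 0 passed at either level. The most abundant were Wfdc17, which also encodes a WAP domain protein, with a log2 difference of 0.43 (limma adjusted p = 0.713), and Timp2, a metalloproteinase inhibitor, with -0.34 (limma adjusted p = 0.747).

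Proteases were then examined, first the cysteine cathepsins, which stefins and cystatins block, and then other families. Of 11 cysteine cathepsins and legumain 6 were listed, and none passed at either level. Cathepsin H (Ctsh) was the most abundant, at 283 ± 41.0 (Rragc+/+, SD, n = 5) and 272 ± 36.3 (RragcS74N/+, SD, n = 4) normalized counts, followed by cathepsin B (Ctsb) with 181 ± 43.6 (SD, n = 5) and 139.5 ± 25.6 (SD, n = 4) and a log2 difference of -0.36 (SE 0.20, limma adjusted p = 0.713). Of 13 neutrophil serine proteases and their partners 3 were listed. Plaur, the receptor that holds urokinase on the cell surface and no protease itself, was lower in RragcS74N/+ at an unadjusted p under 0.05, with a log2 difference of -0.56 (SE 0.24, limma adjusted p = 0.713), and Prss57 gave -0.36. Of 11 metalloproteinases 8 were listed. Mmp8, the neutrophil collagenase, measured 8846 ± 1239 (SD, n = 5) and 8777 ± 1046 (SD, n = 4), and Mmp9, gelatinase B, measured 3638 ± 556 (SD, n = 5) and 3515 ± 181 (SD, n = 4). Adam19 was the one higher at an unadjusted p under 0.05, with 0.49 (SE 0.22, limma adjusted p = 0.713). Of 8 calpain genes 3 were listed, led by Capns1 (log2 difference -0.40) and Capn1 (-0.30), both with a limma adjusted p of at least 0.713.

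Within a library, the ratio of 2 genes does not depend on the size factor. The log2 ratios of Cstb and of Cst3 were taken to each of Ctsb, Ctsl, Ctss and Ctsh, which the 2 inhibitors block. These ratios were compared between genotypes with a two-sided exact permutation test. None of the 8 ratios passed the threshold, and all adjusted p-values of this exact test were 0.794. With so few libraries and an adjustment over 8 ratios, no ratio could pass on its own, however far the genotypes lay apart. The largest difference was that of Cstb to Ctsb, whose log2 value was -0.72 ± 1.06 (SD, n = 5) for Rragc+/+ and 0.093 ± 0.62 (SD, n = 4) for RragcS74N/+ libraries, a difference of 0.81 (exact p = 0.222). The ratio of Cst3 to Ctsb differed by 0.45 (exact p = 0.302). The other 6 differences lay between -0.13 for Cst3 to Ctsl and 0.50 for Cstb to Ctsh.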

How the data were processed

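Libraries were prepared from oligo-dT primed RNA of sorted neutrophils, with molecular identifiers. The authors checked reads with FastQC (0.11.7), aligned them to GRCm39 with TopHat2 (2.0.10), Bowtie (1.0.0) and SAMtools (1.9), and counted them by strand with HTSeq (0.6.1) on GENCODE. Multiple alignments were allowed, which bears on the stefin A copies. The deposited values are a signal: gene read counts that the authors divided by a size factor per library. How the listed genes were filtered is not given in the sources used here. All listed genes were detected in 7 or more of the 9 libraries and reached 8 reads in one. Values were whole multiples of 1 read (100% of values, tolerance 0.01 reads), and 1214295 to 1973957 reads per library were recovered.

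Values were tested as log2(value + 1) with limma (3.58.1, R 4.3.3), trended moderation, genotype as the one term, a minimum mean of 10, and Benjamini-Hochberg adjustment over 6673 genes (threshold 0.05). Folds on this scale understate changes of low genes. edgeR (4.0.16) and DESeq2 (1.42.0) on recovered reads were alternatives, as were other pseudocounts, filters, scalings, weights, GC content of 3′ ends and removal of each library. Ratios were tested with scipy (1.17.1). The procedure was tested on simulated data. The study describes neutrophils purified from several young mice per genotype, more of them RragcS74N/+ than the 4 libraries used here, and the labels tie no library to an animal, so p-values measure the spread between these libraries. Sequences and positions came from GENCODE transcripts of GRCm38 and RefSeq (GRCm38.p6). Of the 10 members, 7 had a promoter entry there. Members and gene lists were chosen with earlier results of these data known. Named genes are all members, the listed genes of related families with an unadjusted p under 0.05, the 2 most abundant of each family and the 3 most similar genes by correlation among those with a mean of at least 50.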

Additional observations from a re-analysis of the deposited data

Results flagged for a closer look

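Among the 42 sets of values examined for a library far from its genotype, 1 stood apart, where chance would give about 2.1. This was Slpi in Rragc+/+ replicate 5, whose 2084 normalized counts lay below the other 4 Rragc+/+ libraries (2896 to 3146), with a gap of 0.765 of the genotype's range. Without this library the log2 difference of Slpi was -0.29, against -0.19 with it, and it was -0.035 without RragcS74N/+ replicate 1, the lowest Slpi value of all.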

How the results depend on the processing

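The 10 members, the related genes and the 8 ratios gave 0 calls past the adjusted threshold under every alternative that was run (20, 20 and 13). Of 200 member differences recomputed, 195 kept their sign and side of the threshold and 5 changed sign, and the smallest adjusted p for a member was 0.326, without Rragc+/+ replicate 5. Leaving out 1 library moved Cst3 between -0.067 and 0.26 and Wfdc21 between -0.045 and 0.24, and removing the GC trend took Slpi to 0.033; the cause was not tested. The number of members at an unadjusted p under 0.05 was 0 to 4 when libraries were left out, and 2 to 4 under the other settings. The stefin A difference stayed between 0.28 and 0.62, and summing all 9 copies, an alternative chosen after seeing the data, gave 0.52. At an unadjusted p under 0.05, edgeR had 467 genes, DESeq2 448 and limma 388. No paired analysis was possible because titles name libraries by codes without a number shared across genotypes. At this depth Cstb rests on as few as 36 reads and Cstdc6 on 2.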
